A study of Mus musculus with 6 samples.

Results

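The 9 genes described here encode the first enzymes and adaptors below the T cell receptor and a set of negative regulators linked to type 1 diabetes. They were taken by symbol from 28914 genes in the deposited table, and all 9 were found: Lck, Zap70, Lat, Lcp2, Plcg1, Ptpn22, Ptpn2, Ubash3a and Sh2b3. When the receptor binds antigen, the Src family kinase Lck, which sits on the CD4 coreceptor, phosphorylates the CD3 chains and the kinase Zap70 docks there. Zap70 then phosphorylates the adaptors encoded by Lat and Lcp2, which assemble a complex that activates the phospholipase encoded by Plcg1, the source of the calcium and diacylglycerol signals. Ptpn22 and Ptpn2 encode phosphatases that act on Lck among other substrates, Ubash3a encodes a suppressor of receptor signalling found mainly in lymphocytes, and Sh2b3 encodes an adaptor best known for limiting cytokine receptor signals in blood cell precursors. Variants at the human counterparts of these 4 regulators are associated with type 1 diabetes.

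The RNA came from splenic CD4 T cells, sorted from NOD mice aged 12 weeks, a strain that develops autoimmune diabetes spontaneously, and the cells were not stimulated through the receptor. There were 2 libraries from cells labelled deficient in Blimp-1 (CKO), 2 from cells labelled as overexpressing it (BTg) and 2 from controls (WT). Blimp-1 is the zinc-finger repressor encoded by Prdm1, and the comparisons ask how transcripts differ when it is reduced or raised. The sources used here give neither the driver of the transgene nor the deleted exons, a Cre line or any pooling of animals. They do not say whether each library is a mouse of its own, and a p-value therefore reflects the spread among these libraries, which may be technical.

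The libraries held 14958458 to 17799091 reads counted on genes. Prdm1 stood at 0.849 and 0.669 FPKM (reads scaled by gene length and by the library's total) in CKO, at 19.6 and 30.1 in BTg and at 0.458 and 0.628 in WT. It was thus not lower in the libraries labelled CKO, and since each value adds up reads over all of the gene it cannot check a partial deletion, so every direction for CKO rests on its label. Cd4 was present in each library, at 53.8 and 93.7 FPKM in CKO, 99.4 and 103 in BTg and 93.7 and 81.7 in WT. Cd8a stayed between 0.0300 and 0.130 FPKM and Cd8b1 between 0.168 and 0.814, highest in WT replicate 1. CKO replicate 1 stood apart in its neutrophil markers. In it 11 neutrophil markers took 1.34% of reads, against 0.0396% in CKO replicate 2, 0.00781 and 0.00826% in BTg and 0.0120 and 0.0325% in WT. Monocyte and macrophage markers took 0.103 and 0.0149% in CKO, 0.00220 and 0.00253% in BTg and 0.00247 and 0.00974% in WT. The WT libraries differed in erythroid markers, at 0.0104 and 0.108%, against 0.0431 and 0.0675% in CKO and 0.0122 and 0.0186% in BTg. Of 11 neutrophil and 7 plasma cell markers, 9 and 5 passed the filter, and all of these were higher in CKO than WT. Without overlap were 7 and 5 of them, beside 11.5% of all tested genes higher without overlap. The share of 10 CD4 T cell markers was 0.320 and 0.439% of reads in CKO, 0.617 and 0.498% in BTg and 0.650 and 0.407% in WT. In such sorted but bulk samples fewer cells of a type and less RNA per cell cannot be told apart.

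The kinases and adaptors were abundant transcripts and the regulators intermediate ones. The deposited FPKM divide by a gene's median transcript span on the genome, introns included, so levels were compared between genes only after recomputing FPKM with merged exon length. On that scale Lck was highest, with 185 and 289 in CKO, 412 and 342 in BTg and 353 and 263 in WT. Lat followed with a mean over libraries of 199, then Zap70 with 92.2, Lcp2 with 58.8 and Plcg1 with 42.3. Lck stood above 98.7% and Plcg1 above 87.5% of 8421 protein-coding genes that passed the filter. Ptpn2, Ptpn22 and Sh2b3 averaged 18.6, 17.9 and 15.3, and their ranges over libraries, 16.7 to 21.9, 14.6 to 25.4 and 11.4 to 19.1, overlapped. Ubash3a was lowest, at 5.57 to 11.0, above 37.8% of coding genes. The ranges of Lck and Lat overlapped too, as did those of Zap70 and Lcp2, of Lcp2 and Plcg1 and of Plcg1 and Ptpn2. Those of Lat and Zap70 did not, nor those of Sh2b3 and Ubash3a.

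The choice of length changed the order. Ptpn2 (ENSMUSG00000024539, chromosome 18, 67665511 to 67724595 on GRCm38, minus strand) has a transcript span 18.0 times its exon length, and its deposited values, 1.06 and 0.929 FPKM in CKO, 1.21 and 0.950 in BTg and 1.10 and 0.945 in WT, made it the lowest of the 9. It rested on 799 to 1098 reads per library, and passed the filter of at least 1 FPKM in 2 libraries through replicate 1 of each group. For Ubash3a and Lat the span is shorter than the exons, 0.538 and 0.623 times their length, so their deposited values are high for their reads. All 9 genes passed the filter. A ratio of 1 gene between libraries does not depend on its length.

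**Figure D1:**
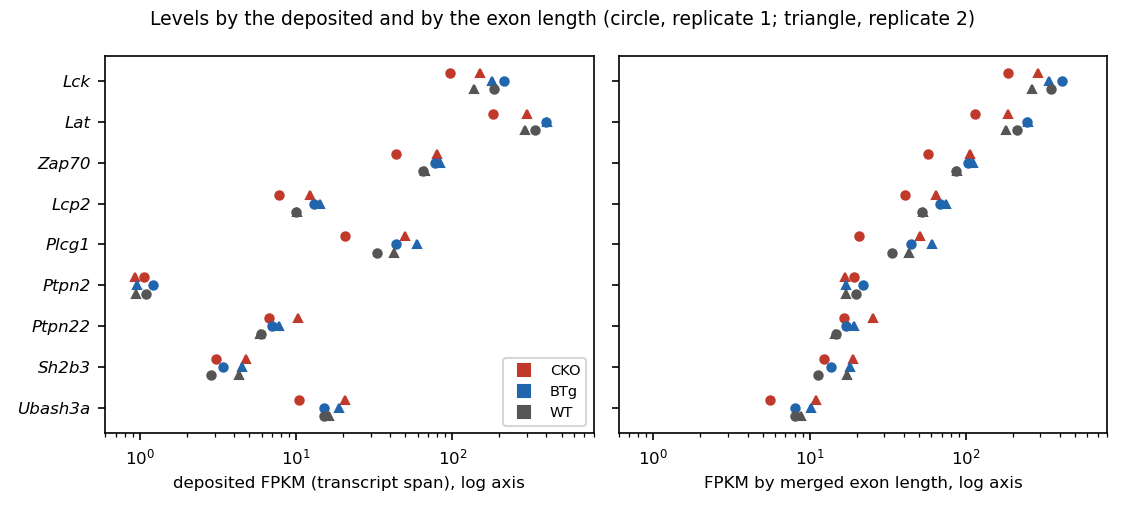
Levels of the 9 genes in each library on a log axis, as deposited (left) and recomputed with merged exon length (right), with CKO, BTg and WT libraries as coloured points. Ptpn2 lies near 1 FPKM as deposited and between 16.7 and 21.9 by exon length, and Ubash3a is the lowest gene by exon length.

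In CKO against WT 0 of the 9 genes passed the threshold, a Benjamini-Hochberg adjusted p under 0.05 in a limma fit over 10798 genes on the log2(FPKM + 1) scale. The same was true of all genes tested, of which 0% passed and 4.20% had an unadjusted p under 0.05; 0 of the 9 genes did. limma voom on recovered reads also called 0 genes, with 879 at unadjusted p under 0.05. Group means were higher for 2 of 9 genes, beside 45.4% of all genes, but for 6 of 9 without CKO replicate 1 and for 9 of 9 when libraries were centred on Cd3d, Cd3e, Cd3g and Cd247. The median difference of the 9 genes was -0.09, beside -0.03 for all genes tested. CKO replicate 1 held the lowest value of all 6 libraries for 6 genes, and CKO replicate 2 stood above both WT libraries for 6 genes.

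Lck (ENSMUSG00000000409, chromosome 4, 129548344 to 129573641 on GRCm38, minus strand) had 96.8 and 151 FPKM in CKO, against 184 and 137 in WT. CKO replicate 1 was below both WT libraries and CKO replicate 2 lay between them, so the groups overlapped. The log2 difference was -0.39 (SE 0.37, 95% interval -1.30 to 0.51; limma adjusted p = 1). It was -0.076 without CKO replicate 1 and -0.71 without CKO replicate 2, and -0.18 and -0.60 without WT replicate 1 and 2. Lat, the membrane adaptor (ENSMUSG00000030742, chromosome 7, 126363824 to 126369570, minus strand), had 183 and 300 FPKM in CKO against 340 and 292 in WT, again overlapping. Its log2 difference was -0.43 (SE 0.37), -0.070 without CKO replicate 1 and -0.78 without CKO replicate 2.

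For the other signalling genes the CKO libraries lay on either side of WT. Zap70 (ENSMUSG00000026117, chromosome 1, 36761798 to 36782818, plus strand) stood at 43.2 and 79.9 FPKM in CKO, around 65.2 and 66.3 in WT. Lcp2, the cytosolic adaptor, stood at 7.81 and 12.2 in CKO, around 9.95 and 10.1 in WT. Plcg1 stood at 20.4 and 49.5 in CKO, around 33.0 and 42.4 in WT. Each thus had 1 CKO library below and 1 above both WT libraries, and their log2 differences were -0.16 (SE 0.37), -0.03 (SE 0.27) and -0.22 (SE 0.47). Plcg1 differed most within CKO, by 2.42 times, where the counting error of its smaller count is 1.85%. Without CKO replicate 1 the differences were 0.28, 0.26 and 0.40, and did not pass. What part the neutrophil reads of that library have in these values was not tested.

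Ptpn22, encoding the lymphoid phosphatase that dephosphorylates Lck and Zap70, was the 1 gene of the 9 whose CKO libraries did not overlap WT. Of all tested genes 11.5% were higher without overlap, a share near 1 of 9, so this count does not set the 9 genes apart. Lower without overlap were 0 of the 9, and 8.96% of all. Ptpn22 (ENSMUSG00000027843, chromosome 3, 103859795 to 103912247 on GRCm38, plus strand) had 6.66 and 10.3 FPKM in CKO, against 5.93 and 5.89 in WT. The log2 difference was 0.42 (SE 0.26, 95% interval -0.21 to 1.06; limma adjusted p = 1). It was positive under each of 17 alternatives, from 0.15 without CKO replicate 2 to 0.92 with centring on the CD3 genes, where the median of all genes moved to 0.46. Over these alternatives limma adjusted p lay between 0.699 and 1.

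The stretch around the start of transcription is shown for Ptpn22 and for Lck, against which it is set next. RefSeq sequences (GRCm38.p6) cover 250 bases before to 50 after each start. Capitals mark matches to GNGAAAG, taken here as the core of the motif that Blimp-1 binds, searched on both strands. Any base was accepted at N and no flanking bases were required, so a match is looser than a full binding motif. Each Ptpn22 start has 1 match, beginning 212 bases before the start on the opposite strand at the upstream one (chr3:103859545-103859844, plus strand) and 99 bases before it on the gene's strand at the other (chr3:103860027-103860326, plus strand). Both Lck windows, at the upstream start known for its use in mature T cells (chr4:129573592-129573891, minus strand) and at the one nearer the coding exons known for its use in thymocytes (chr4:129558323-129558622, minus strand), hold none.
Ptpn22 upstream start: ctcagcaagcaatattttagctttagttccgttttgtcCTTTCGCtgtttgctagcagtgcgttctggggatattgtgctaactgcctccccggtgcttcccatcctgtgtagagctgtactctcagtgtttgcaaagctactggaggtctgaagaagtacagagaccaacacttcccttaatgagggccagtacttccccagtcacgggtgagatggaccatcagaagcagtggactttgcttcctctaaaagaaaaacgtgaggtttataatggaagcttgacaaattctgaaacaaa
Ptpn22 downstream start: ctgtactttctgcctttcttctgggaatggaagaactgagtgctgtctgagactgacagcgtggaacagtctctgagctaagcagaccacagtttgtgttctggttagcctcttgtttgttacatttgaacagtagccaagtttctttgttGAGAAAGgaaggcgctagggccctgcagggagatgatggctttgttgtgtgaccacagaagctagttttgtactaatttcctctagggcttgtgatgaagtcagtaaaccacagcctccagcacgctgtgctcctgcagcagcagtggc
Lck upstream start: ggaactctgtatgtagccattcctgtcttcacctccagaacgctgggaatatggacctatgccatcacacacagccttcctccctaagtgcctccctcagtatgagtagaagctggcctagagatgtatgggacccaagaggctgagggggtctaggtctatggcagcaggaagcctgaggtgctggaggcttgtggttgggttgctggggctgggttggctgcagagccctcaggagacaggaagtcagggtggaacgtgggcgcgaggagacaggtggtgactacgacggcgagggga
Lck downstream start: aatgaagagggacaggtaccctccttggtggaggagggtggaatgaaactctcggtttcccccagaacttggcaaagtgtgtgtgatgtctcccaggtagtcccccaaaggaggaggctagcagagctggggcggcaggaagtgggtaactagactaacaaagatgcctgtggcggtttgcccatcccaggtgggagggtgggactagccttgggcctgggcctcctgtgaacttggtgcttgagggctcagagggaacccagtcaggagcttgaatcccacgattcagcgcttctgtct
Among 12 such windows of 8 of the genes, 2 had a match, against 22.6% of 32851 windows of all genes. Ptpn2 was not searched. The libraries hold no measure of binding, so the matches are a description of letters.

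Set against Lck in the same library, Ptpn22 transcripts were about even within CKO and higher than in the other groups, a ratio chosen after its values were seen. There were 20.5 and 20.3 Ptpn22 reads per 100 Lck reads in CKO, against 9.66 and 12.9 in BTg and 9.62 and 12.8 in WT. Both CKO libraries lay above all 4 others, but came to this ratio differently. CKO replicate 1 had 96.8 FPKM of Lck, below the 184 and 137 of WT, and 6.66 FPKM of Ptpn22. CKO replicate 2 had 151 FPKM of Lck, between the WT libraries, and 10.3 FPKM of Ptpn22, against 5.93 and 5.89 in WT. B cell markers took 0.0123 and 0.00829% of reads in CKO, 0.00332 and 0.00406% in BTg and 0.00378 and 0.00768% in WT, and plasma cell markers 0.580 and 0.149% in CKO, 0.0840 and 0.0528% in BTg and 0.101 and 0.0954% in WT. Both were higher in both CKO libraries, and their part in the result was not tested. The part of neutrophil markers, at 1.34% of reads in CKO replicate 1 and 0.0396% in CKO replicate 2, was not tested either. CKO was 1.84-fold over WT (log2 difference of the ratio 0.88). That log2 difference was 0.67 to 1.09 with any 1 of the 4 libraries left out, and 0.87 without CKO replicate 1. Against reads of 4 CD3 chain genes CKO was again highest, with 11.1 and 12.5 per 100 in CKO, 5.27 and 7.47 in BTg and 4.63 and 7.20 in WT. Centring on these CD3 genes also moved the median of all tested genes toward CKO, to 0.46 in CKO against WT and -0.63 in BTg against CKO. Of all tested genes 14.1% had more reads per Lck read in both CKO libraries than in both WT libraries, and 2.92% had fewer. No such share was computed for CKO against BTg or for CD3 reads. No test is given, since the ratio was chosen on these values.

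In CKO against WT, 0 of the other genes were lower without overlap on this ratio, beside 2.92% of all tested genes. Lcp2 and Sh2b3 were also higher without overlap, beside 14.1% of all. Lcp2 had 33.7 and 33.8 reads per 100 Lck reads in CKO, against 22.5 and 30.8 in WT. Sh2b3 had 11.0 and 10.8 in CKO against 5.29 and 10.7 in WT, a gap far smaller than the spread within WT. Ptpn2 overlapped, with 11.0 and 6.17 in CKO and 5.97 and 6.90 in WT, as did Ubash3a, with 11.5 and 14.6 in CKO and 8.78 and 12.8 in WT. Summed by exon length, the 4 regulators stood at 12.8 and 10.4% of the 5 kinases and adaptors in CKO, 6.95 and 7.67% in BTg and 7.31 and 9.14% in WT. The regulator sum itself overlapped, at 53.6 and 72.1 in CKO against 53.9 and 57.6 in WT. So did the sum of kinases and adaptors, at 419 and 697 in CKO against 737 and 629 in WT. The 12.8% of CKO replicate 1 thus came with a low sum of kinases and adaptors, not a high regulator sum.

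**Figure D2:**
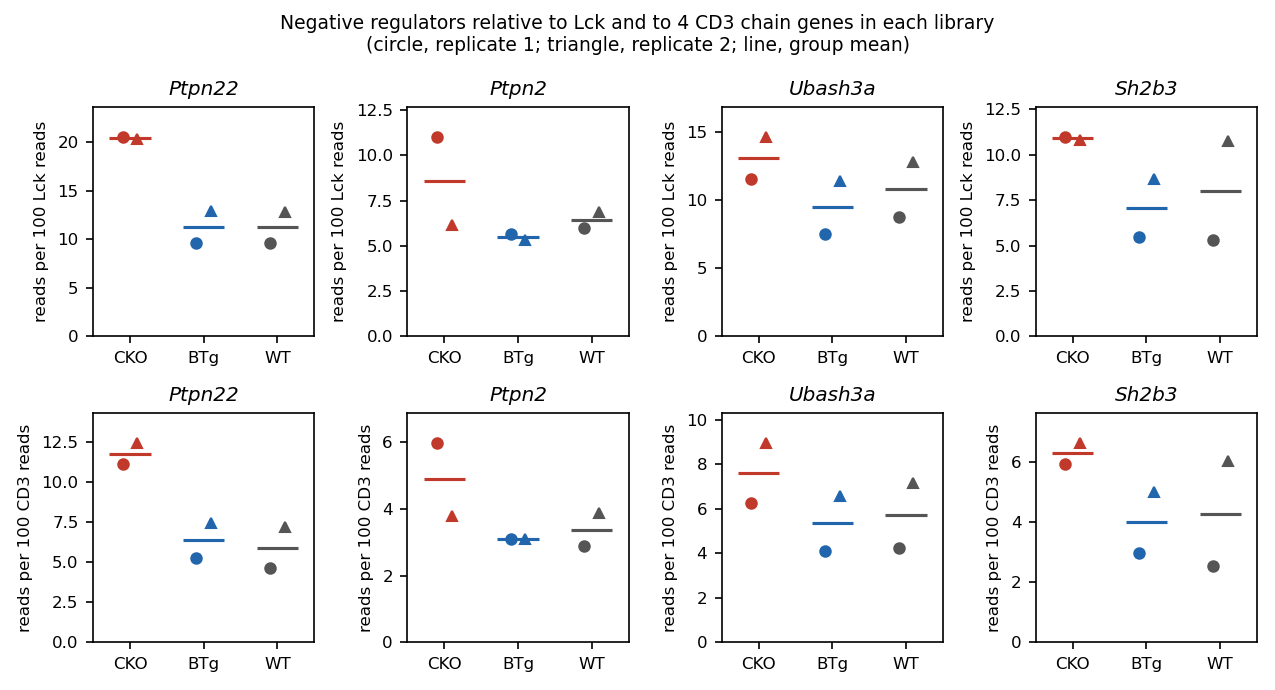
Reads of the 4 negative regulators per 100 Lck reads (top) and per 100 reads of Cd3d, Cd3e, Cd3g and Cd247 (bottom) in each library, with lines at group means. Ptpn22 lies at 20.5 and 20.3 per 100 Lck reads in CKO, above the 9.62 to 12.9 of the BTg and WT libraries.

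On the deposited scale the other regulators did not separate CKO from WT. Ubash3a (ENSMUSG00000042345, chromosome 17, 31207873 to 31246892, plus strand) stood at 10.4 and 20.4 FPKM in CKO, around 15.0 and 16.3 in WT, and differed by -0.09 (SE 0.36). Sh2b3 (ENSMUSG00000042594, chromosome 5, 121815488 to 121837646, minus strand) had 3.09 and 4.75 FPKM in CKO against 2.83 and 4.28 in WT. Its difference of 0.11 (SE 0.28) was smaller than the gap between replicates in either group. Ptpn2, given above, differed by -0.02 (SE 0.21), with a 95% interval of -0.53 to 0.50 that its low deposited level narrows through the added 1 FPKM.

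**Figure D3:**
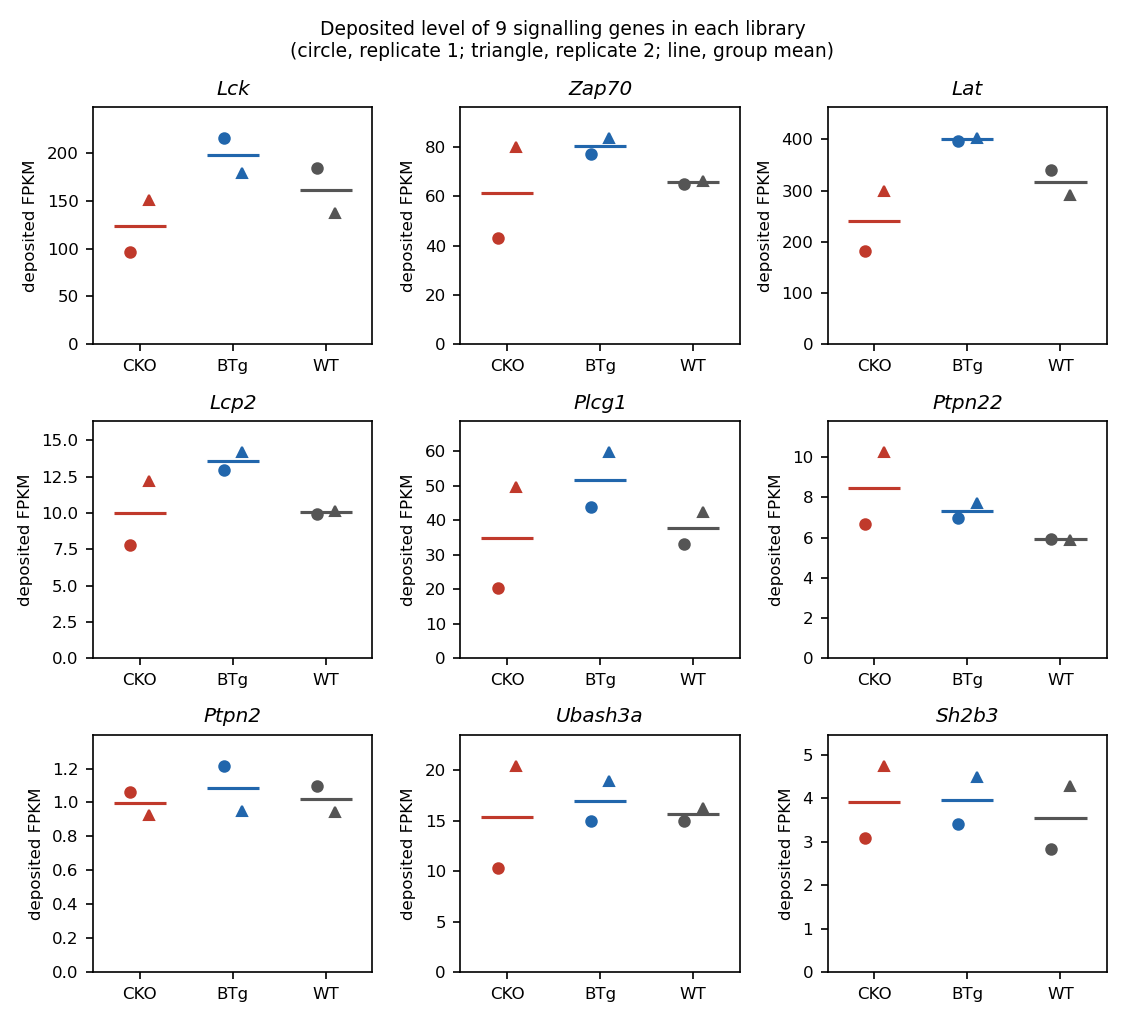
Deposited FPKM of each of the 9 genes in the 6 libraries, by group, with lines at group means and axes from 0. CKO replicate 1 is the lowest library for 6 genes, while both Ptpn22 values in CKO and in BTg lie above both in WT.

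In BTg against WT, where Prdm1 rose by 4.04 on the log2 scale (SE 0.26; limma adjusted p = 0.0221), 0 of the 9 genes passed; 2 of 10798 genes, or 0.0185%, did, and 0 did with any 1 library left out. Group means were higher in BTg for 9 of 9 genes, beside 54.5% of all genes, and for 6 of 9 when libraries were centred on the CD3 genes. Libraries did not overlap for 5 of the 9, Zap70, Lat, Lcp2, Plcg1 and Ptpn22, against 14.7% of all tested genes higher without overlap. Lower without overlap were 0 of the 9 and 10.4% of all. Counted per 100 reads of the CD3 genes, each of those 5 genes overlapped between BTg and WT. The median difference of the 9 genes was 0.29, beside 0.02 for all genes tested. At unadjusted p under 0.05 were 0 of the 9 genes and 1.62% of all.

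Lcp2 (ENSMUSG00000002699, chromosome 11, 34046920 to 34092295 on GRCm38, plus strand) had 13.0 and 14.2 FPKM in BTg. Its WT libraries had 9.95 and 10.1. Both groups were tight and did not overlap, and the mean was 13.6 ± 0.878 in BTg and 10.04 ± 0.128 in WT (SD, n = 2). The log2 difference was 0.40 (SE 0.27, 95% interval -0.27 to 1.07; limma adjusted p = 1). Lat stood at 397 and 403 FPKM in BTg and at 340 and 292 in WT, which gave a difference of 0.34 (SE 0.37). Zap70 had 77.2 and 83.7 in BTg against 65.2 and 66.3 in WT, a difference of 0.29 (SE 0.37).

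Plcg1 (ENSMUSG00000016933, chromosome 2, 160731300 to 160775760, plus strand) stood at 43.7 and 59.7 FPKM in BTg and at 33.0 and 42.4 in WT. The lower BTg library stood just above the higher WT library, and the difference of 0.44 (SE 0.47) had the widest interval of the 9, from -0.70 to 1.59. Lck, at 215 and 179 FPKM in BTg and at 184 and 137 in WT, overlapped, with a difference of 0.30 (SE 0.37). With intervals this wide the data do not show that the kinases stood at like levels.

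Among the regulators, Ptpn22 stood at 6.95 and 7.73 FPKM in BTg and at 5.93 and 5.89 in WT, a difference of 0.27 (SE 0.26) without overlap. Its count per 100 Lck reads, given above, overlapped almost fully between BTg and WT. Ubash3a stood at 15.0 and 18.9 FPKM in BTg and at 15.0 and 16.3 in WT. Sh2b3 stood at 3.41 and 4.50 in BTg and at 2.83 and 4.28 in WT. Both overlapped, with differences of 0.10 (SE 0.36) and 0.13 (SE 0.28). Ptpn2 differed by 0.04 (SE 0.21), or by 0.07 with exon length.

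**Figure D4:**
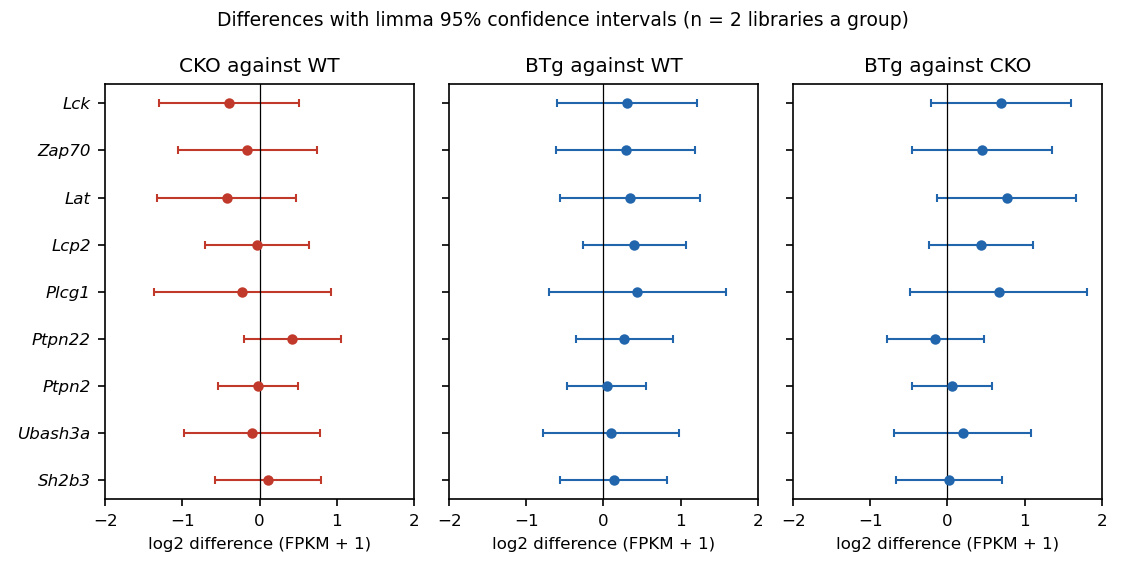
Log2 differences on the FPKM + 1 scale with limma 95% confidence intervals for the 9 genes in CKO against WT, BTg against WT and BTg against CKO, with 2 libraries in each group. Every interval crosses 0, and in BTg against WT all 9 points lie right of 0, where centring on the CD3 genes leaves 6.

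BTg against CKO uses no WT library for its fold changes, but shares its libraries with the comparisons above. Again 0 of the 9 genes passed, against 0.0185% of all genes, and 0 of the 9 had an unadjusted p under 0.05, against 8.79% of all; 8 of 9 were higher in BTg, beside 56.1% of all genes, but 6 of 9 without CKO replicate 1 and 2 of 9 with centring on the CD3 genes. Their median was 0.43, beside 0.06 for all genes, but 0.046 without CKO replicate 1 and 0.73 without CKO replicate 2. Libraries did not overlap for Lck, Lat and Lcp2, 3 of 9 genes, where 17.8% of all tested genes were higher without overlap; 0 of the 9 and 21.8% of all were lower without overlap. In the same comparison 9 of 10 CD4 T cell markers were higher without overlap, with a median of 0.61; their part in the result was not tested. Lat, which differed most, had 397 and 403 FPKM in BTg, against 183 and 300 in CKO. Its log2 difference was 0.77 (SE 0.37, 95% interval -0.13 to 1.67; limma adjusted p = 0.608), with 0.41 without CKO replicate 1, 1.12 without CKO replicate 2 and 0.082 after centring on the CD3 genes. Lck had 215 and 179 FPKM in BTg against 96.8 and 151 in CKO, a difference of 0.69 (SE 0.37), which was 0.38 without that library and 0.01 after centring on the CD3 genes. Ptpn22 alone pointed the other way, with 6.95 and 7.73 FPKM in BTg against 6.66 and 10.3 in CKO, an overlapping difference of -0.16 (SE 0.26) that turned to 0.12 without CKO replicate 2.

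Set against CD3 reads, Lck was nearly level across the series. It had 54.1 and 61.4 reads per 100 reads of the 4 CD3 chain genes in CKO, 54.6 and 57.9 in BTg and 48.2 and 56.1 in WT, and all 3 groups overlapped. The CD3 genes themselves took 0.1003 and 0.138% of reads in CKO, 0.221 and 0.173% in BTg and 0.215 and 0.137% in WT. These genes did not move together between replicates. In WT Cd3e had 60.1 and 78.0 FPKM, while Cd3d had 930 and 532, Cd3g 129 and 64.7 and Cd247 5.35 and 3.09. In BTg the directions were the same as in WT, and in CKO each was higher in replicate 2. Centring on the CD3 genes moved the median of all genes to 0.46 in CKO against WT, -0.17 in BTg against WT and -0.63 in BTg against CKO. On that scale the median of the 9 genes was 0.40, 0.09 and -0.25.

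Other genes of the pathway were read from lists chosen with earlier results of these data known. Other kinases were lower in CKO than WT for 5 of 7 tested genes, with a median of -0.45, and higher for 5 of 7 with centring on the CD3 genes; 0 passed. Without CKO replicate 1 they were lower for 4 of 7, with a median of -0.045, and the median was -0.85 without CKO replicate 2. Txk, a Tec family kinase, had 0.896 and 2.89 FPKM in CKO, against 3.73 and 3.81 in WT. Prkd2, a serine kinase activated by diacylglycerol, had 63.2 and 81.7 in BTg against 45.0 and 57.8 in WT. Jak3, which signals below cytokine receptors, had 11.3 and 14.8 in BTg against 17.0 and 25.3 in CKO, with WT at 11.6 and 17.3.

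Other adaptors were lower in CKO for 10 of 12 genes, but for 6 of 12 without CKO replicate 1 and for 2 of 12 with CD3 centring. Grap2, the adaptor that links the Lcp2 product to the Lat product, had 5.88 and 19.0 FPKM in CKO, 28.8 and 32.1 in BTg and 22.4 and 21.4 in WT. These groups did not overlap in any comparison, and CKO replicate 1 was lowest of all. BTg against CKO differed by 1.42 (SE 0.50; limma adjusted p = 0.512). Its relative Grap had 8.98 and 17.0 in CKO against 22.9 and 17.5 in WT. Nck2, an adaptor to the cytoskeleton, had 2.06 and 2.37 in BTg against 1.53 and 1.70 in WT. Sh2d1a, encoding the adaptor of SLAM receptors, had 2.96 and 1.89 in BTg against 3.71 and 3.69 in CKO, with WT at 4.11 and 2.03.

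The calcium, Ras and NF-kappaB arms downstream were higher in BTg than WT for 19 of 19 genes, by a median of 0.13, but for 4 of 19 with CD3 centring, 18 of 19 after quantile normalization and 17 of 19 with voom. Libraries did not overlap for 9 of the 19, beside 14.7% of all genes higher without overlap, and 0 passed. Ppp3ca, the calcineurin catalytic subunit, stood at 2.64 and 2.29 FPKM in BTg and at 1.57 and 1.69 in WT, and Stim1, the calcium sensor of the endoplasmic reticulum, 35.8 and 36.1 against 26.9 and 29.6. In CKO against WT the split was 8 higher and 11 lower, and 16 higher and 3 lower without CKO replicate 1. Rasgrp1, the Ras activator recruited by diacylglycerol, had 1.97 and 5.07 in CKO against 6.02 and 5.56 in WT, while Orai1, the calcium channel, had 3.29 and 3.27 in CKO against 2.63 and 2.56 in WT. Ppp3r1, the regulatory subunit of calcineurin, had 4.56 and 4.65 in CKO against 5.15 and 5.09 in WT. Hras, a Ras GTPase, had 11.7 and 11.5 in BTg against 12.8 and 11.8 in CKO, with WT at 9.27 and 12.9.

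Other negative regulators split in CKO against WT, with 8 of 19 tested genes higher and 11 lower, 4 and 2 of them without overlap, beside 11.5% and 8.96% of all genes. Without CKO replicate 1 they were higher for 17 of 19. Sit1, a transmembrane adaptor that restrains receptor signals, had 46.2 and 65.9 FPKM in CKO, 169 and 102 in BTg and 154 and 68.8 in WT. Dgka, which removes diacylglycerol, had 20.6 and 56.9 in CKO, 71.9 and 87.0 in BTg and 60.9 and 60.7 in WT. Lax1, an inhibitory adaptor related to Lat in function, stood higher in both CKO libraries, at 9.68 and 12.5 against 7.27 and 8.93 in WT, as did Ptpn11, encoding the SH2-domain phosphatase Shp2, at 3.50 and 4.04 against 2.41 and 3.08. Sla, encoding an adaptor that promotes loss of the receptor from the surface, had 4.68 and 4.17 in BTg against 6.83 and 6.50 in CKO. Its WT values were 5.62 and 4.62. Its relative Sla2 had 5.18 and 5.62 in BTg against 4.05 and 3.60 in WT. In BTg against WT 16 of 19 were higher, 9 of 19 with CD3 centring, and 0 passed in any of the 3 comparisons.

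Genes that receptor signalling induces were split. Of 10 tested, 5 were higher and 5 lower in CKO than WT, and 6 higher and 4 lower in BTg. Irf4, a transcription factor induced in proportion to receptor signal strength, had 4.33 and 3.32 FPKM in CKO, 0.801 and 1.23 in BTg and 1.13 and 1.82 in WT. Egr2, an early response factor, had 5.14 and 5.67 in CKO, 1.91 and 2.34 in BTg and 2.86 and 3.34 in WT. Both stood higher in CKO without overlap, by 0.97 (SE 0.25) and 0.64 (SE 0.20), with limma unadjusted p = 0.00824 and 0.0173 and adjusted p = 0.934 and 1. They were named for the size of their difference among genes without overlap, and 11.5% of all tested genes were higher without overlap. Plasma cells also express Irf4, and plasma cell markers took 0.580 and 0.149% of reads in CKO against 0.101 and 0.0954% in WT; their part in the result was not tested. Dusp5, a phosphatase of MAP kinases, had 2.40 and 2.23 in BTg, against 0.759 and 1.23 in CKO and 1.30 and 1.20 in WT. Egr1 had 16.8 and 14.0 in BTg against 10.02 and 11.1 in WT. Dusp2 had 112 and 103 in BTg against 33.4 and 92.5 in CKO, with WT at 91.5 and 74.3. After CD3 centring 2 genes of this list passed in BTg against CKO, as did 826 of all 10798 genes.

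Among other genes near human diabetes signals, 15 of 25 passed the filter, with 6 higher and 9 lower both in CKO and in BTg against WT. Il7r, the interleukin receptor chain that carries the survival signal of resting T cells, stood at 9.20 and 19.1 FPKM in CKO, 8.39 and 9.71 in BTg and 26.1 and 19.3 in WT. In BTg against WT the log2 difference was -1.23 (SE 0.38; limma adjusted p = 1). Ikzf4, a factor of regulatory T cells, had 2.02 and 2.12 in BTg, against 3.59 and 5.59 in CKO and 2.96 and 3.68 in WT. Ctsh, a lysosomal protease, had 5.16 and 1.30 in CKO against 0.394 and 0.954 in WT, the highest value being in the library rich in neutrophil reads. Ctla4, an inhibitory receptor, had 8.62 and 8.31 in CKO against 7.80 and 6.05 in WT. Ikzf1, the factor Ikaros, had 9.96 and 10.6 in BTg against 7.65 and 9.05 in WT, and Gpr183, a receptor for oxysterols, 5.05 and 4.92 against 4.70 and 3.75. With CD3 centring 3 genes of this list were among those 826 in BTg against CKO.

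**Figure D5:**
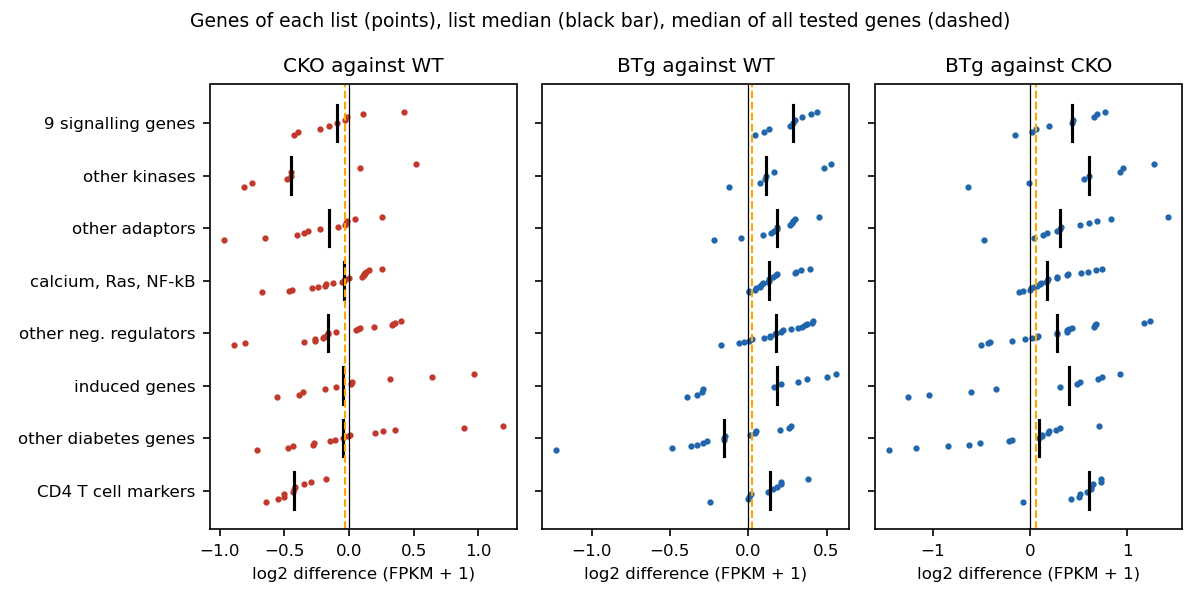
Log2 differences (FPKM + 1) of the tested genes of each pathway list in the 3 comparisons, with list medians as black bars and the median of all tested genes as a dashed line. The 9 signalling genes have medians of -0.09, 0.29 and 0.43, and CD4 T cell markers have medians of -0.43, 0.14 and 0.61; without CKO replicate 1 the first and the last median of the 9 genes are 0.28 and 0.046, and with centring on the CD3 genes these medians are 0.40 and -0.25.

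The genes whose values over the 6 libraries lay nearest to those of Lat, by Euclidean distance of centred log2 values among 8251 coding genes, included Gimap1 and Dnajb5, at 0.08 and 0.12. Gimap1, a GTPase of lymphocytes, had 39.4 and 63.2 FPKM in CKO, 85.9 and 83.4 in BTg and 70.5 and 64.3 in WT. Dnajb5, a heat shock cochaperone, had 1.08 and 2.16 in CKO, 3.21 and 3.14 in BTg and 2.48 and 2.13 in WT. Both, like Lat, were lowest in CKO replicate 1.

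Reads of 3 of the 9 genes may be shared with genes on the opposite strand or left uncounted, since no setting for strand or overlap is given. Exons of Lcp2 share 282 bases with 4930469K13Rik, those of Plcg1 379 with Zhx3 and 248 with Gm27206, and those of Sh2b3 99 with Atxn2. These are between 2.06 and 6.32% of the exon bases of Lcp2, Plcg1 and Sh2b3. On the same strand, exons of Lck share 25 bases with Mir8119 and those of Lat 75 with Mir7058.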

How the data were processed

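The authors deposited 1 table of FPKM values for 28914 Ensembl genes in 6 libraries. Per the labels' protocols RNA was extracted with TRIzol and libraries were made with a NEBNext Ultra kit; the tools were featureCounts 1.6.0, HISAT2 2.1.0 and Trimmomatic 0.38 with build GRCm38, per the submitters' processing notes. Settings, strand and annotation release were not given in the sources used here. Symbols and positions came from GENCODE M21.

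With the median transcript span as length, 100.0% of values above 0 were whole reads within 0.01, and these reads were recovered. Values were analysed as log2(FPKM + 1), for genes reaching 1 FPKM in 2 or more libraries, in one limma fit of all 6 libraries (R 4.3.3, limma 3.58.1, trend, no block). Fold changes of low genes are understated on this scale. The fit was tested on simulated data, and 17 alternatives were tried; figures used matplotlib 3.10.9. Groups and replicate numbers came from the titles; outside its brackets the title of BTg replicate 2 ends in 1.

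Members and lists were chosen with earlier results of these data known. Named genes are the 9 members, Prdm1, per list, comparison and direction up to 2 genes with the largest difference among those without overlap and reaching a mean of 2 FPKM in the higher group, and the 3 nearest genes to the member that differed most; 2 of the genes this rule names are not reported here.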

Additional observations from a re-analysis of the deposited data

How the results depend on the processing

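Of the differences of the 9 genes, 0 passed the threshold under any of 17 alternatives, and 34 of their values turned sign. Centring on the CD3 genes turned CKO against WT for Lck (0.10), Zap70 (0.33), Lat (0.066), Lcp2 (0.46), Plcg1 (0.27), Ptpn2 (0.47) and Ubash3a (0.40), and their median (0.40). It turned BTg against WT for Ptpn2 (-0.15), Ubash3a (-0.093) and Sh2b3 (-0.065), and BTg against CKO for Zap70 (-0.24), Lcp2 (-0.25), Plcg1 (-0.022), Ptpn2 (-0.63), Ubash3a (-0.49), Sh2b3 (-0.66) and the median (-0.25).

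Leaving out 1 library turned or moved these values. In CKO against WT the range was -0.55 to 0.28 for the median, -0.59 to 0.28 for Zap70, -0.33 to 0.26 for Lcp2, -0.84 to 0.40 for Plcg1, -0.072 to 0.037 for Ptpn2, -0.55 to 0.37 for Ubash3a and -0.14 to 0.35 for Sh2b3. In BTg against WT the range was -0.051 to 0.13 for Ptpn2, -0.055 to 0.26 for Ubash3a and -0.10 to 0.36 for Sh2b3. In BTg against CKO the range was -0.43 to 0.12 for Ptpn22, -0.033 to 0.15 for Ptpn2, -0.26 to 0.65 for Ubash3a and -0.22 to 0.27 for Sh2b3; the median stayed positive, at 0.046 to 0.73.

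Counts of genes called were 0, 2 and 2 in CKO against WT, BTg against WT and BTg against CKO. Without a filter they were 65, 46 and 81, and with CD3 centring 261, 20 and 826. Quantile normalization and the replicate block gave 0 for both BTg comparisons; at least 5 FPKM gave 1 and 5, exon length 9 and voom 5 for BTg against CKO. Leaving out 1 library gave 0 to 67, 0 to 0 and 0 to 238; the 67 and 238 were found without CKO replicate 2 and each other omission gave 0. The cause was not tested. At 5 FPKM Ptpn2 and Sh2b3 had no value.

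Same-numbered libraries deviated together from their group means (r across 10798 genes 0.46 for CKO and BTg, 0.17 for CKO and WT, 0.47 for BTg and WT), but with 2 numbers and no stated pairing they share only a number. The replicate block changed no call among the 9 genes (limma adjusted p at least 0.314) and took the 2 called genes of each BTg comparison to 0. All 9 genes were higher in BTg than WT between both same-numbered libraries, as were 35.9% of all tested genes. With 2 libraries a group, the precision of these comparisons rests on the spread between few libraries.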
